A study of Arabidopsis thaliana with 2 samples.

Results

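SCR (AT3G54220), SHR (AT4G37650), SCL23 (AT5G41920) and SCL3 (AT1G50420) are 4 Arabidopsis genes of the GRAS family of plant transcription regulators that are known from the endodermis. They were taken from the arrays by their locus identifiers, and are 4 of the 25665 loci the arrays name. Each was read by 1 probe, and all 4 probes were well above background in all 4 channels, with no saturated spot and no outlier. RNA levels were compared between wild type, labelled WT(Col), and sgr1, a mutant line of unstated allele. The reference gene table lists SGR1 as another name of SCR and SGR7 as another name of SHR.

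The tissue was the elongation zone of the primary inflorescence stem, cut as a 1.5 cm piece starting 0.3 cm and ending 1.8 cm below the apex, with side organs taken off. Stems were 5 to 8 cm tall, plants of both genotypes grew in constant light at 23 °C, and at least 10 plants were pooled for an RNA sample. Both genotypes had 3 days in the cold at 4 °C and 10 days on plates. Array 1 carried sgr1 in Cy3 and wild type in Cy5, and array 2 carried the dyes the other way round. One label speaks of 2 biological replicates and another of replicate 1 of 1, so the spread between the 2 arrays may be technical. The p-values rest on that spread as pooled over all loci, more than on each gene's own.

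In the root, SHR protein is made in the stele and moves outward into the neighbouring cell layer, where it binds SCR. SCR holds SHR in the nucleus, the complex activates SCR itself, and together they drive the divisions and the identity of the endodermis. SCL23 is a close relative of SCR that also binds SHR, and SCL3 is a target of SHR and SCR that promotes gibberellin responses by acting against the DELLA repressors, which are GRAS proteins as well. In shoots the endodermis is the starch sheath, whose amyloplasts sense gravity, and loss of SCR or SHR removes this layer and the upward bending of inflorescence stems.

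SCR and SHR RNA was lower in sgr1 than in wild type, SCL3 RNA was higher, and SCL23 did not pass the test. SCR stood at 50.5% of its wild type level and SHR at 69.0%, while SCL3 stood at 135%. These are means over 2 arrays from limma's moderated test on log2 ratios, with Benjamini-Hochberg adjustment over the 19059 loci tested and a threshold of 0.05. Of the 4 genes 2 were called lower and 1 higher, where 8.98% of all loci tested were called lower and 9.92% higher, or 18.9% in either direction.

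SCR, the gene whose other name is that of the mutant, gave normalized log2 signals of 10.86 and 10.96 in wild type on arrays 1 and 2, and of 10.05 and 9.80 in sgr1. Both sgr1 values lay below both wild type values. The log2 ratio of sgr1 over wild type was -0.81 on array 1 and -1.16 on array 2, and its mean was -0.99 ± 0.245 (SD, n = 2), or 1.98-fold lower. The 95% interval of the limma fit ran from -1.27 to -0.70, with an adjusted p of 3.29e-07. The SCR signal was still 8.81 and 27.6 times its local background in sgr1 on arrays 1 and 2, and 48.3 and 21.6 times in wild type. The genotypes were in different dyes on each array, so these multiples do not compare them. Where in the gene the probe lies was not known here, and a probe outside the lesion would check nothing about the genotype label. In RNA from whole stem segments, fewer cells that express SCR and less SCR RNA per cell cannot be told apart, and the same holds for each gene below.

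SHR, which encodes the mobile regulator, gave a spot at percentiles 90.5 and 90.3 of all spots on arrays 1 and 2 by average brightness. Its normalized log2 signals were 12.31 and 12.35 in wild type and 11.84 and 11.75 in sgr1, with no overlap between the genotypes. The log2 ratio was -0.47 on array 1 and -0.60 on array 2, with a mean of -0.53 ± 0.0884 (SD, n = 2), or 1.45-fold lower. The interval was -0.81 to -0.26 and the limma adjusted p was 0.0038. The array values of SCR and SHR did not overlap but their 95% intervals did, and the difference between the genes was not tested.

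SCL3, the member tied to gibberellin signalling, went the other way. Its normalized log2 signals were 10.30 and 10.34 in wild type and 10.83 and 10.67 in sgr1, again without overlap. The log2 ratio was 0.54 on array 1 and 0.32 on array 2, with a mean of 0.43 ± 0.152 (SD, n = 2), or 1.35-fold higher. The interval was 0.15 to 0.71 and the limma adjusted p was 0.0233.

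SCL23, the relative of SCR, had normalized log2 signals of 10.76 and 10.96 in wild type and of 11.12 and 11.05 in sgr1. The sgr1 values lay above the wild type values, but on array 2 by only 0.09, against 0.35 on array 1. The mean log2 ratio was 0.22 ± 0.184 (SD, n = 2) with a limma adjusted p of 0.302. Its 95% interval, -0.06 to 0.50, covered levels in sgr1 from 0.959 to 1.42 times wild type, so that neither no change nor a rise as large as that of SCL3 lay outside it.

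**Figure D1:**
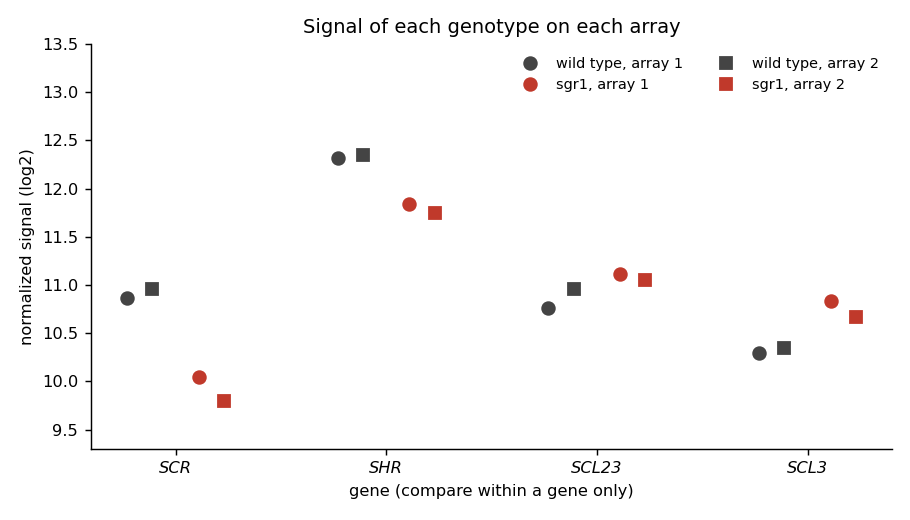
Normalized log2 signal (vertical axis) of SCR, SHR, SCL23 and SCL3 (horizontal axis) in wild type and sgr1, with 1 point for each genotype on each of the 2 arrays. The sgr1 points lie below the wild type points for SCR and SHR and above them for SCL23 and SCL3, and heights are comparable only within a gene because each gene has a probe of its own.

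For all 4 genes the genotypes did not overlap in normalized signal, 2 with sgr1 higher and 2 with sgr1 lower. With 2 values a genotype that is a weak criterion, since 59.3% of all loci tested met it, 29.6% with sgr1 higher and 29.7% with sgr1 lower. Likewise all 4 genes had the same sign on both arrays, as had 67.2% of all loci tested. None of the 4 reached a 2-fold change on each array with 1 direction, which 1.53% of the loci did. An exact sign-flip test over 2 arrays cannot give a p below 0.5, so the calls rest on the spread that limma estimates over all loci.

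In rank, the SCR change was larger in size than those of 98.0% of the loci tested, the SHR change than 90.7%, the SCL3 change than 84.9% and the SCL23 change than 60.1%. The ratio was lower on array 2 than on array 1 for all 4 genes. That gap was 0.35 for SCR, 0.13 for SHR, 0.26 for SCL23 and 0.21 for SCL3 on the log2 scale, against a median absolute gap of 0.19 over all loci. The mean change of SCL23 was thus smaller than the gap between its arrays, and those of SCR, SHR and SCL3 were larger.

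The scanner software gave its own ratio for each spot, from its own background subtraction and dye normalization, with its own error and p-value. For SCR this log2 ratio was -0.86 ± 0.219 on array 1 and -1.25 ± 0.234 on array 2 (software error), and for SHR it was -0.49 ± 0.209 and -0.63 ± 0.212. For SCL3 it was 0.57 ± 0.211 and 0.31 ± 0.206, and for SCL23 0.37 ± 0.207 and 0.13 ± 0.204. Every software ratio had the sign of the loess ratio of the same spot. The software p-value of the single spot was 0.0198 and 0.00301 for SHR, 0.00701 and 0.132 for SCL3, and 0.0725 and 0.536 for SCL23, and that of SCR on array 1 was 8.02e-05. These p-values are for single spots and do not cover differences between plants.

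**Figure D2:**
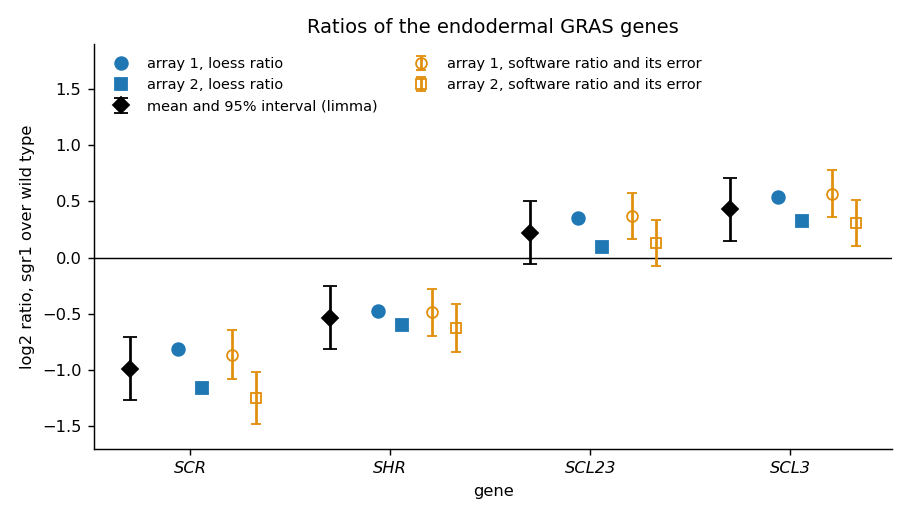
Log2 ratio of sgr1 over wild type (vertical axis) for each of the 4 genes, as the limma mean with its 95% interval, as the loess ratio on each array, and as the scanner software's ratio with its own error. SCR and SHR lie below 0 and SCL3 above 0 on both arrays and in both kinds of ratio, while the interval of SCL23 includes 0.

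The 2 dyes differed strongly in raw signal, so that the directions cannot be read from the raw signals within an array. Within a dye across the arrays, the background-included mean signal of SCR in Cy3 was 1100 in wild type and 533 in sgr1, and in Cy5 it was 3190 and 1880. For SHR the Cy3 signals were 2790 in wild type and 1780 in sgr1, and the Cy5 signals 9080 and 7400. SCR and SHR were thus dimmer in sgr1 in either dye, before any normalization. Within a dye the genotypes were on different arrays, so any difference in brightness between the arrays also enters these raw signals. For SCL3 the Cy3 signals were 719 in wild type and 913 in sgr1, and the Cy5 signals 2160 and 3440. For SCL23 they were 1090 and 1100 in Cy3, and 3020 and 4530 in Cy5, so the genotypes were nearly level in Cy3. After background correction and centring of these same-dye ratios on the median locus, a comparison chosen after seeing the data, the Cy3 and Cy5 log2 ratios were -0.94 and -1.04 for SCR. They were -0.53 and -0.56 for SHR, 0.45 and 0.40 for SCL3, and 0.12 and 0.32 for SCL23. The limma adjusted p of these ratios was 0.0048 for SCR, 0.0247 for SHR, 0.0474 for SCL3 and 0.236 for SCL23, where 13.4% of all loci were called.

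Across the family, 34 GRAS genes were listed, 32 had a probe and 28 passed the filter on dim spots. Among these 28, SCL3 was the 1 called higher, and SCR, AT1G63100, SHR and SCL7 were the 4 called lower. That is 17.9% of the measured family, near the 18.9% of all loci, and the median log2 ratio of the family was 0.04. In order of mean ratio SCR was number 1 from the lowest, SHR number 3, SCL23 number 22 and SCL3 number 28, the highest. AT1G63100, which the gene table describes as a scarecrow family protein, had log2 ratios of -0.47 and -0.66, a mean of -0.57 ± 0.136 (SD, n = 2) and a limma adjusted p of 0.00212. Its values overlap the array values of SHR. SCL7, another family member, had ratios of -0.31 and -0.57, a mean of -0.44 ± 0.184 (SD, n = 2) and an adjusted p of 0.0215. No GRAS gene outside the 4 was called higher by limma. At an unadjusted p under 0.05, 1 of the other 24 was higher, SCL9, the gene next below SCL3 in the order, with a mean of 0.29. Over all loci tested, 2928 of 19059 were higher at that threshold.

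The DELLA proteins, on which SCL3 acts, showed no called change in RNA. GAI had log2 ratios of -0.47 and 0.24, so its arrays disagreed in sign, and RGA had -0.21 and -0.02, with a mean of -0.11 and a limma adjusted p of 0.649. The means of RGL1, RGL2 and RGL3 were -0.05, 0.22 and -0.10.

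**Figure D3:**
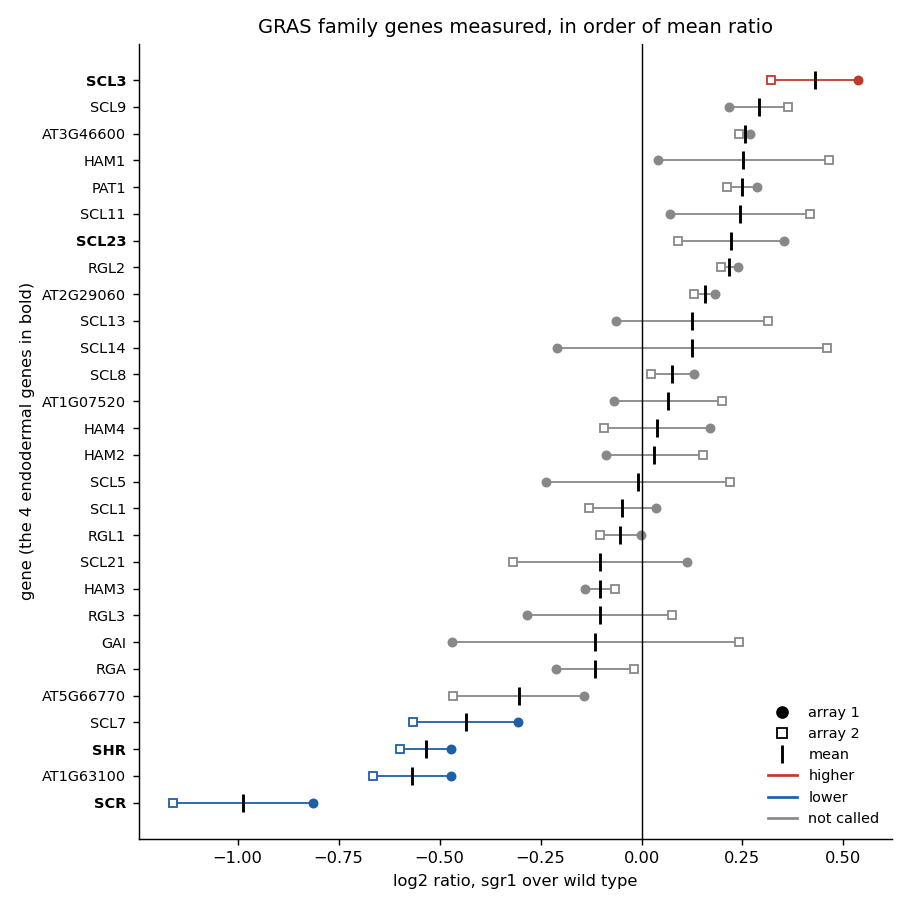
Log2 ratio of sgr1 over wild type (horizontal axis) on each of the 2 arrays, with the mean, for the 28 GRAS genes that passed the filter, ordered by mean. SCR is lowest, SHR is number 3 from the lowest, SCL23 is number 22, SCL3 is highest, and 23 of the 28 genes were not called.

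Proteins that bind or move with SHR and SCR form the next group, among them zinc finger proteins of the INDETERMINATE DOMAIN type, the endosomal protein SIEL, the retinoblastoma protein RBR1 and the histone deacetylase HDA19. All 11 listed genes were measured, 3 were called lower and none was called higher by limma, with 4 lower and 0 higher at an unadjusted p under 0.05. Over all loci 8.98% were called lower, and 2819 of 19059 were lower at an unadjusted p under 0.05. The median log2 ratio of the list was -0.13. AT3G45260, a C2H2 zinc finger gene, had ratios of -0.97 and -0.90, a mean of -0.93 ± 0.0520 (SD, n = 2) and an adjusted p of 7.98e-07. That places it beside SCR in size, but its sgr1 signal was well above background on 1 array only, and its mean was -3.68 in the scanner software's ratios. IDD5 had ratios of -0.58 and -0.51, a mean of -0.54 ± 0.0441 (SD, n = 2) and an adjusted p of 0.00318. AT1G14580, another C2H2 zinc finger gene, had -0.35 and -0.48, a mean of -0.42 ± 0.0913 (SD, n = 2) and an adjusted p of 0.0264. JKD, which in the root binds SHR and SCR and limits SHR movement, was not called, with ratios of 0.05 and -0.42 and an adjusted p of 0.431.

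Of 15 listed genes downstream of SHR and SCR, 11 were measured, 2 were called lower and none was called higher by limma, with 3 lower and 0 higher at an unadjusted p under 0.05. The 2 calls are 18.2% of the 11, near the 18.9% of all loci called in either direction. At an unadjusted p under 0.05, 2819 of the 19059 loci tested were lower. SNE, an F-box gene related to SLY1, had log2 ratios of -0.30 and -0.80, a mean of -0.55 ± 0.351 (SD, n = 2) and an adjusted p of 0.0039. CDKB2;1, a cyclin-dependent kinase gene of dividing cells, had -0.42 on both arrays and an adjusted p of 0.0253. PHB, one of the HD-ZIP III genes that SHR and SCR restrict in the root through small RNAs, had -0.14 and 0.41 and was not called. MYB36, the regulator of Casparian strip genes that SCR activates in the root, was too dim to be measured, as were CKX3, ABI4 and ABI5.

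Among 9 listed genes of gibberellin synthesis, perception and feedback, which bear on the pathway of SCL3, 6 were measured. GA3OX1, whose enzyme makes bioactive gibberellin and whose RNA gibberellin lowers, was the 1 called lower, or 16.7% of the 6 against 18.9% of all loci in either direction. Its log2 ratios were -0.29 and -0.64, with a mean of -0.47 ± 0.247 (SD, n = 2) and a limma adjusted p of 0.0141. No gene of this list was called higher by limma, against 1 at an unadjusted p under 0.05. Over all loci tested, 2928 of 19059 were higher at that unadjusted threshold.

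**Figure D4:**
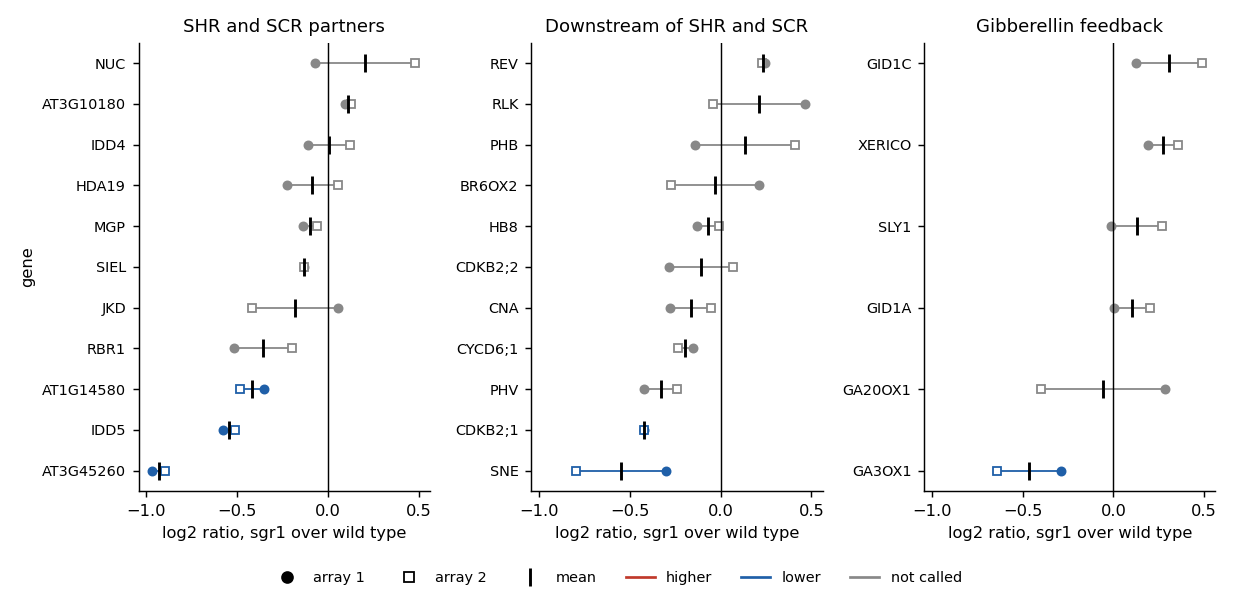
Log2 ratio of sgr1 over wild type (horizontal axis) on each array, with the mean, for the measured genes of 3 lists: 11 partners of SHR and SCR, 11 downstream genes and 6 gibberellin genes. The calls are 3, 2 and 1 genes, all of them lower in sgr1.

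The loci whose 2 array ratios lay nearest to those of each gene were found by Euclidean distance over all loci tested that carry a symbol. For SCR they were CLC-B at a distance of 0.0477 and NSN1 at 0.0696, and for SHR they were CNBT1 at 0.0219 and TOM7-2 at 0.0226. For SCL23 they were MSRB1 at 0.00436 and ARD4 at 0.00626, and for SCL3 LAC11 at 0.00829 and ABCA10 at 0.0107. With 2 arrays such closeness is common. Within a distance of 0.1 lay 10 other loci for SCR, 165 for SHR, 340 for SCL23 and 143 for SCL3.

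The genes beside the 4 on the chromosome were read as well, taking 2 on each side by order in the gene table, a choice made with results known. Of these 16 neighbours 14 were measured and 1 was called, where 18.9% of all loci were called. It was CYCD5;1, a cyclin gene next but one to SHR, with a mean log2 ratio of -0.39 and a limma adjusted p of 0.0433. The 3 measured neighbours of SCR had means from -0.07 to 0.16, those of SHR from -0.39 to -0.21, those of SCL23 from -0.26 to 0.25 and those of SCL3 from -0.02 to 0.24. The mean of SCR lay far below those of its neighbours. SHR, at -0.53, stood less apart, as its 4 neighbours all had means below 0 too. Differences between a gene and its neighbours were not tested.

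Some markers of the layers in the segment were called as well. Of 14 endodermis and starch sheath markers 12 were measured, with 4 called lower, 1 called higher, 7 not called and a median log2 ratio of -0.07, where 18.9% of all loci were called. LAZY1 and SGR5, both needed for shoot gravitropism, had means of -2.15 and -1.02, and AT4G28100 had -0.66. AT1G17400 was called lower and at least 1.38-fold so, as its sgr1 signal was not well above background on either array. PER64, a peroxidase gene of Casparian strip lignin, had a mean of 4.21 in the opposite direction. GSO1, a receptor kinase gene of Casparian strip formation, had 0.30 and 0.41 and was not called (limma adjusted p 0.0638), but was called higher with a normexp offset of 16, at 0.62, and with the scanner software's ratios, at 1.86. CASP5 and AT1G72490 were too dim to be measured. The summed signal of the 14 markers in sgr1 was 0.829 times wild type on array 1 and 0.861 times on array 2. Bright probes set such a sum, and over the 11 measured markers other than PER64, a sum chosen after seeing the data, it was 0.66 and 0.60 times.

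The same sums came to 1.01 and 1.48 for epidermis, with FDH and CER6 called higher and PDF1 lower among 6 measured. They came to 1.13 and 1.12 for xylem and fibre, with NST1 and IRX3 higher among 6, and to 0.849 and 1.62 for green cortex, with LHCB3 and LHCB2.1 higher among 5. For dividing cells they were 0.856 and 0.915, with PCNA1 lower among 4. For phloem they were 0.932 and 0.989 and for cambium 0.817 and 0.905. By limma 0 were called of 5 and of 2, with 1 in each at an unadjusted p under 0.05. That unadjusted threshold was passed by 5747 of the 19059 loci tested. Beside the limma calls in these layers, 18.9% of all loci were called, 9.92% higher and 8.98% lower. All 4 floral organ markers were too dim to be measured. With the scanner software's ratios FDH, CER6, IRX3, LHCB2.1 and PCNA1 were not called, and the mean of NST1 was 1.36 in place of 0.78. The part of these shifts in the values of SCR, SHR, SCL23 and SCL3 was not tested.

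Over 11 other ways of processing that allow a test, the mean log2 ratio of SCR ran from -1.06 to -0.98, that of SHR from -0.56 to -0.53, that of SCL23 from 0.22 to 0.25 and that of SCL3 from 0.43 to 0.44. SCR was called in 10 of the 11, SHR and SCL3 in 9 each, and SCL23 in 0, and no mean changed sign. These counts include the ratios within a dye, chosen after seeing the data, under which SCR, SHR and SCL3 were called. The narrow ranges are partly fixed in advance. An Aquantile step and the other eBayes setting leave the log2 ratios as they are. The other filters and single probes cannot change these means, as each gene has 1 probe, well above background in every channel. Averaging over swapped dyes also offsets dye shifts. With median centring the SCR mean of -0.98 came from -1.72 on array 1 and -0.24 on array 2. With median centring in place of loess none of the 4 was called by limma, and 0 of them had an unadjusted p under 0.05, where 0.0105% of loci were called. With the scanner software's ratios, under which 10.2% of loci were called, SHR and SCL3 were not called, at limma adjusted p of 0.0666 and 0.131.

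**Figure D5:**
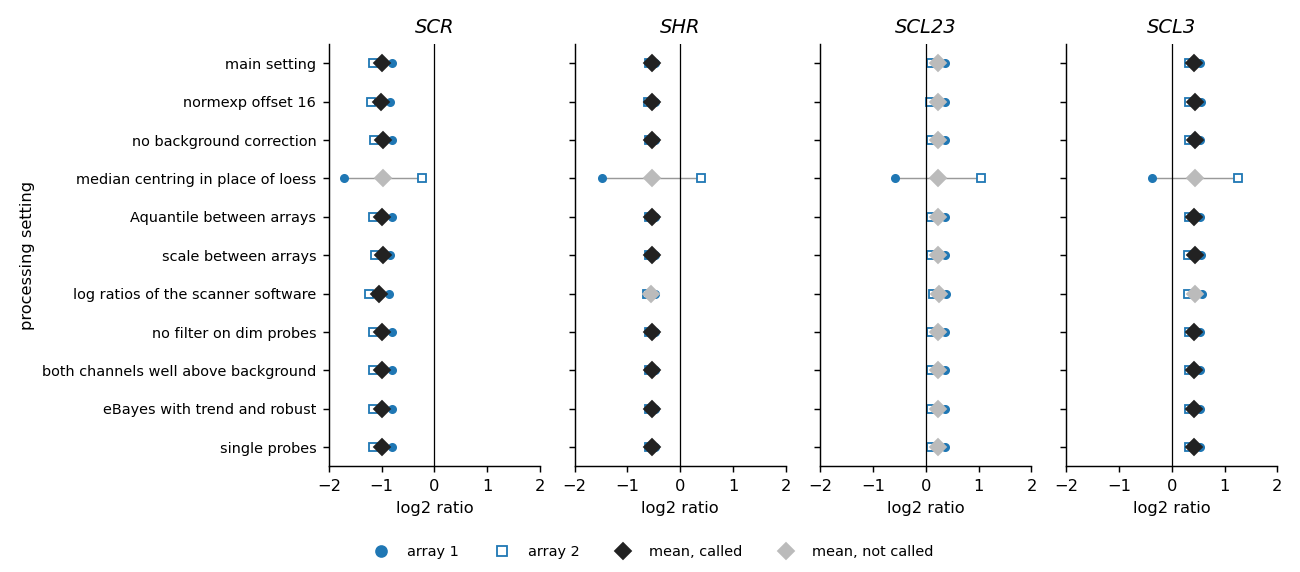
Log2 ratio of sgr1 over wild type (horizontal axes) of the 4 genes under each processing setting with a test (vertical axis). The ratios within a dye are left out. Points give each array and the mean, with the mean shaded by whether limma called it. The means barely move between settings, some of which cannot change them. The arrays lie far apart where median centring takes the place of loess.

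Over the whole study, 59.2% to 66.5% of spots were well above background per channel and 0 spots were saturated. By limma 1891 loci were called higher and 1711 lower in sgr1. A mean of 0.38 on the log2 scale was the least that passed, and the arrays' ratios correlated across loci at r = 0.72, where loci are not independent replicates. Both arrays lay on 1 slide, and their small number limits the precision of every value above.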

How the data were processed

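RNA of sgr1 and wild type stems was hybridised to 2 two-colour Agilent arrays with swapped dyes. The deposited scanner files hold mean and background intensity per spot and channel, and a log10 ratio of Cy5 over Cy3 with its error and p-value, made by Agilent Feature Extraction 9.1.3.1 per the file headers. A value table, also deposited, holds the same log10 ratio, with a largest difference of 0 and a median of 0 in each column, with signs as Cy5 over Cy3 on both arrays. No genome build was stated or needed.

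Intensities were corrected by normexp (offset 50) and normalized by loess within arrays in limma 3.58.1 under R 4.3.3, with control and outlier spots at weight 0 (96 and 177 outliers). Log2 ratios were turned to sgr1 over wild type. Spots were averaged per probe and probes per locus. A locus was tested when each array had 1 or more channels well above background, which left 19059 of 25665 loci. Normalized signals per channel had an Aquantile step added. The fit (lmFit, eBayes) had 1 residual degree of freedom and 47.7 prior ones. Means are log2 values, and fold changes are their antilogs. Where a signal was not well above background in a group, the lowest signal among probes above background gave the bound. Marker sums add these normalized signals, on a linear scale, over a list. Gene symbols came from a RefSeq gene table (TAIR10.1, names and gene order only), which matched 18949 of the loci tested.

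Members and lists were chosen with earlier results of these data known. Named genes were the 4 members, the called genes of the GRAS, partner, downstream and gibberellin lists with JKD, RGA, GAI, PHB and MYB36, up to 4 genes of each marker list by size of change, and the 2 nearest patterns per member. Other names, SCL9, GSO1, the remaining DELLA genes, the dim genes and CYCD5;1 among them, were chosen after their values were seen. Alternatives were the normexp offset, no background correction, median centring, scaling between arrays, the software's log ratio, other filters on dim spots, another eBayes setting, single probes, each array alone, the 2 arrays as 1 replicate and ratios within a dye.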

Additional observations from a re-analysis of the deposited data

How the results depend on the processing

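With median centring in place of loess the medians of all loci tested moved to -0.80 on array 1 and 0.81 on array 2, limma called 2 loci (0.0105%, with 90 at an unadjusted p under 0.05), and SCR (-0.98), SHR (-0.54) and SCL3 (0.43) kept their means but lost their calls, at an adjusted p of 0.999909. The GRAS, partner, downstream and gibberellin lists then had 0 calls each, and 0 at an unadjusted p under 0.05. With the scanner software's log ratios limma called 1952 loci, and SHR (-0.56) and SCL3 (0.44) lost their calls. The GRAS list then had 1 call, the partner list 1, the downstream list 0 and the gibberellin list 0. At an unadjusted p under 0.05 these lists had 6, 4, 3 and 1 genes, against 5156 of all 19059 loci. AT1G63100, SCL7, IDD5, AT1G14580, SNE, CDKB2;1, GA3OX1, CER6 (adjusted p 0.0998), FDH (0.0920), IRX3 (0.130), LHCB2.1 (0.128) and PCNA1 (0.0578) were not called there, and the mean of AT1G17400 was -3.05, as against -1.17 with a normexp offset of 16, which gave AT3G45260 a mean of -1.44. With ratios within a dye the downstream list had 1 call, and AT1G14580, CDKB2;1, AT1G17400 and IRX3 were not called. IRX3 also lost its call under eBayes with trend and robust settings (0.0690). The causes were not tested. Each array alone gave SCR from -1.16 to -0.81, SHR from -0.60 to -0.47, SCL23 from 0.09 to 0.35 and SCL3 from 0.32 to 0.54, with no test and, for the lists, no count of calls. The 2 arrays as 1 replicate gave the same means with no test. A block for slide could not be fitted, as both arrays lie on 1 slide. The ratios within each array are themselves the paired comparison of the genotypes. Beyond this, with the replicate number as a block, no paired analysis was possible because that number is the array itself. Of the depth, signal over background limits AT3G45260 and AT1G17400 and the genes left unmeasured, not SCR, SHR, SCL23 or SCL3.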
